A study of Mus musculus with 12 samples.

Results

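Tubulin isotypes were followed in BW5147 cells, a T cell line from a mouse thymic lymphoma, across 12 expression arrays. The genes were Tuba8, Tuba1a and Tuba4a (alpha-tubulins), Tubb2a, Tubb3, Tubb5 and Tubb6 (beta-tubulins) and Tubg1 (gamma-tubulin). All probe sets that the platform annotation gave a single symbol, equal to 1 of these 8 names, were taken, which gave 12 of the 22626 probe sets. The set was selected on the CCL1 differences of Tuba8 and Tubb2a in these same arrays, so every CCL1 value below is a description without a test. A filter on the mean signal left 8 of the 12 probe sets, from 6 of the 8 genes, among 13575 probe sets in all.

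The study had 6 groups of 2 arrays, numbered 1 and 2 in the labels, all from cells of the same line after 8 h. Besides unstimulated cells, there were cells given the glucocorticoid drug dexamethasone (Dex) at 100 ng/ml, the cytokine interleukin-9 (IL-9) at 100 U/ml or the chemokine CCL1 at 100 U/ml. The last 2 groups received Dex together with IL-9 (Dex+IL-9) or together with CCL1 (Dex+CCL1), at the same doses. A lymphoma line is a single malignant clone of T cells in culture, without the other cells of a thymus. The labels do not say whether the 2 arrays of a group came from separate cultures, so p-values measure the spread between arrays, which may be technical.

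Microtubules are hollow filaments of alpha- and beta-tubulin heterodimers, and gamma-tubulin in ring complexes starts their growth. Vertebrates have several genes for each class, whose proteins differ mainly near the C-terminus, where enzymes modify them. In T cells the microtubule network turns with the centrosome toward a bound target cell, and in dividing cells it forms the spindle. CCL1 signals through the receptor Ccr8, IL-9 through a cytokine receptor and STAT factors, and Dex through the glucocorticoid receptor.

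Sequence is shown for the promoters of Tuba8, which had the higher signal with CCL1, of Tubb2a, which had the lower, and of Tuba4a, the other alpha-tubulin with higher signals. Promoter entries were present in RefSeq (GRCm38.p6) for 6 of the 8 genes, and the 250 bases before each start are printed 5′ to 3′ on the gene's strand. The windows are chr6:121210484-121210733 (plus strand) for Tuba8, chr13:34078009-34078258 (minus strand) for Tubb2a and chr1:75219295-75219544 (minus strand) for Tuba4a. Capitals mark matches, on either strand, to the letters searched.
Tuba8: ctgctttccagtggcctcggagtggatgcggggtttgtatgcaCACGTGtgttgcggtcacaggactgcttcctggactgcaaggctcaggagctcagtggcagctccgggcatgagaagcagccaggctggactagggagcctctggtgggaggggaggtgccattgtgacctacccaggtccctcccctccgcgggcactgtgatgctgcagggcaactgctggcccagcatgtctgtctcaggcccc
Tubb2a: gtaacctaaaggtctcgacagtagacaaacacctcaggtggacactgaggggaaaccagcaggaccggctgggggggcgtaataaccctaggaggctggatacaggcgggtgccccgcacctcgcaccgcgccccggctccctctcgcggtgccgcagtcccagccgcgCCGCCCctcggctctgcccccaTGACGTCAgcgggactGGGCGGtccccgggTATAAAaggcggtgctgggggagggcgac
Tuba4a: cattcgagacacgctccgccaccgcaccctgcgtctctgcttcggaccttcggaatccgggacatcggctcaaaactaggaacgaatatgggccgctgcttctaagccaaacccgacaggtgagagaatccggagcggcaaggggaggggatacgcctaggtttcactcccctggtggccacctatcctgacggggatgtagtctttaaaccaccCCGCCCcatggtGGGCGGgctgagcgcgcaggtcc
Letters of core promoter elements were searched as TATAAA for the TBP site of the initiation machinery, GGGCGG for the Sp1 site (called the GC box below), and CCAAT for the NF-Y site. Letters of inducible elements were searched as TGANTCA for the AP-1 site, TGACGTCA for the cAMP response element, CACGTG for the E-box and CCGGAAG for the ETS site. No matches overlapped each other in these promoters.

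The Tuba8 window held CACGTG at -207 to -202 from the start and no other match. CACGTG was present in 6.02% of 32851 mouse promoters of the same length. The Tubb2a window held TATAAA at -29 to -24, TGACGTCA at -59 to -52, and GC box letters starting at -81 and at -43. TATAAA was present in 12.4% of promoters, TGACGTCA in 1.55% and the GC box letters in 32.7%. The Tuba4a window held GC box letters starting at -35 and at -23. GC content was 63.6% for Tuba8, 68.4% for Tubb2a and 61.6% for Tuba4a, against a median of 52.4% over all promoters. The Tuba8 and Tubb2a windows thus shared none of the letters searched, and a match is a description of letters, not a binding site.

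Several arrays stood apart from their labels or groups. Array CCL1 2 was run on a different array platform from the other 11, with the same probe sets, and lies in a table of its own. It was left out of all tests, so CCL1 alone had 1 array there. Every CCL1 difference of number 2 without Dex therefore compares 2 platforms, and platform and treatment cannot be told apart in it. Known glucocorticoid targets were higher in the number 1 arrays without Dex than in the number 2 arrays without Dex. In number 1 they were near, within or, for unstimulated 1, above the range of the Dex arrays. Their mean level was taken over 12 genes, 5 of them under a signal of 20 in every array, centred per gene on the log2 scale. It was 0.30, 0.01 and 0.06 in unstimulated 1, IL-9 1 and CCL1 1. It was -0.36, -0.43 and -0.35 in the number 2 arrays of these groups, and 0.05 to 0.25 in the 6 Dex arrays. Array Dex 2 had the lowest median correlation with the others, 0.967 against 0.979 to 0.984. The trimmed mean signal was 100.04 to 100.05 in every array, and the ratios of 3′ to 5′ probe sets were 1.10 to 1.22 for Actb and 0.682 to 0.781 for Gapdh. T cell markers on the array were kept for 8 of 10 genes (Cd3e, Cd3g, Thy1, Lat and Ptprc among them). The T cell markers Cd247 (0.60 to 9.24) and Cd5 (0.23 to 7.01) were not kept. The summed signal of B cell markers was 4.87 to 21.9, of neuron markers 3.15 to 19.0 and of erythroid markers 0.80 to 5.88, with no gene kept. Of the myeloid markers 3 of 5 were kept (Lyz2, Csf1r and Cd68, summed signal of all 5 from 22.9 to 47.7), and of the fibroblast markers 1 of 5 (Col1a2, summed signal 2.58 to 30.3). Dusp6 separated the 4 CCL1 arrays (509 to 716) from the other 8 (134 to 209), and Bcl3 the 4 IL-9 arrays (114 to 159) from the rest (at most 13.3).

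Tuba8, a divergent alpha-tubulin known from muscle, testis and brain, was higher in every array with CCL1 than in any without. Its signal was 384 and 434 in CCL1 arrays 1 and 2, and 443 and 427 in Dex+CCL1 arrays 1 and 2. It was 115 and 211 in unstimulated cells, 157 and 127 with Dex, 135 and 151 with IL-9, and 132 and 85.7 with Dex+IL-9. The lowest CCL1 array thus lay well above the highest of the other 8 arrays, unstimulated 2, and the CCL1 arrays with and without Dex overlapped. In bulk RNA, more transcript per cell and a larger share of cells with the transcript cannot be told apart. On the log2(signal + 16) scale the differences of CCL1 from the control array of the same number were 1.61 and 0.99 without Dex and 1.41 and 1.63 with Dex. Their mean was 1.41 ± 0.30 (SD, n = 4 differences), a ratio of 2.66 on that scale. The smallest difference came from number 2 without Dex, where unstimulated 2 was the highest array without CCL1. Ranked by this mean, Tuba8 stood at place 2 of 13575 probe sets, between Dusp6 (1.57), a phosphatase of ERK kinases, and Abat (1.30), an enzyme of GABA breakdown.

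**Figure D1:**
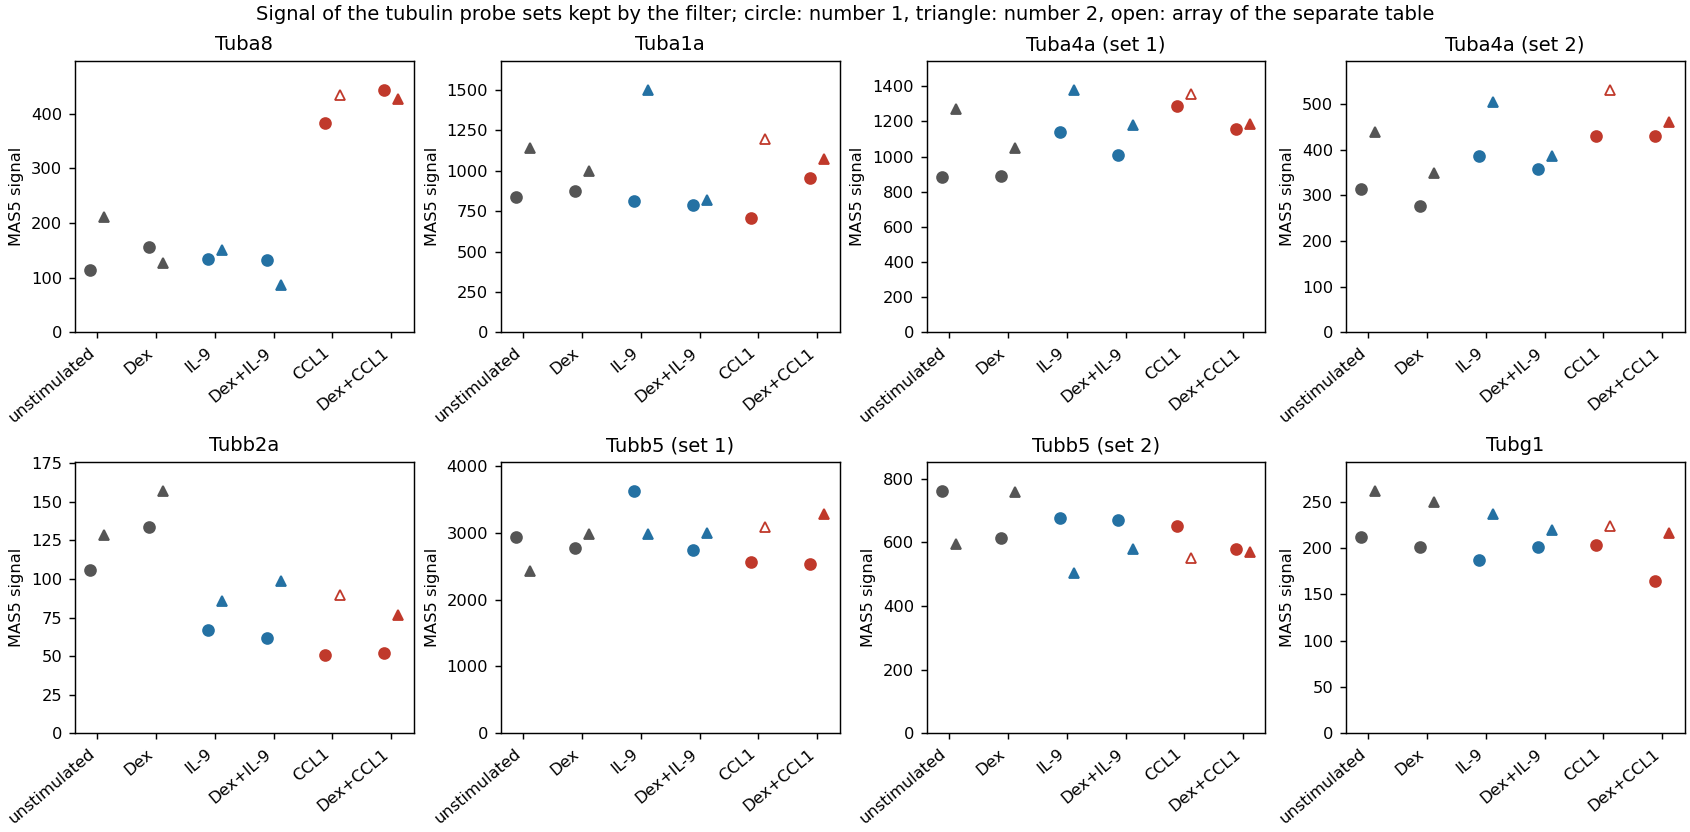
MAS5 signal (linear axis from 0) of the 8 tubulin probe sets kept by the filter, 1 panel each, with 1 symbol per array: circles are number 1, triangles number 2, and the open triangle is the CCL1 array of the separate table. Tuba8 sits at 384 to 443 in the 4 CCL1 arrays and at 85.7 to 211 in the other 8, while Tubb2a is highest in the 4 arrays without IL-9 or CCL1 (106 to 157).

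Tuba4a, an alpha-tubulin whose gene does not encode the C-terminal tyrosine of most others, had 2 kept probe sets. The first had signals of 885 and 1268 unstimulated, 888 and 1049 with Dex, 1286 and 1358 with CCL1, and 1156 and 1188 with Dex+CCL1. The second had 315 and 438, 277 and 350, 431 and 531, and 430 and 462 in the same order of groups. In both probe sets unstimulated 2 overlapped the CCL1 arrays, so the groups did not separate. CCL1 differences of the first were 0.53, 0.10, 0.37 and 0.18 (no Dex numbers 1 and 2, then with Dex), with a mean of 0.30 ± 0.20 (SD, n = 4). Those of the second were 0.43, 0.27, 0.60 and 0.38, with a mean of 0.42 ± 0.14. All 8 differences were above 0, and the 2 probe sets followed each other over the 12 arrays (Pearson r = 0.947, arrays sharing labelling and scaling). The remaining Tuba4a probe set had signals of 0.81 to 11.5 and was not kept.

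Tuba1a, a major alpha-tubulin of dividing and neuronal cells, showed no common direction with CCL1. Its differences were -0.23, 0.07, 0.12 and 0.10, a mean of 0.02 ± 0.17 (SD, n = 4). Signals ranged from 707 in CCL1 1 to 1498 in IL-9 2, and number 1 was below number 2 in all 6 groups. The Tuba1a probe set is of a kind (suffix x) whose probes can match other transcripts, and alpha-tubulin genes are near-identical in sequence, so its signal may include other isotypes.

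Tubb2a, a beta-tubulin best known from neurons, was lower in every array with CCL1 than in any control array. Its signal was 106 and 128 in unstimulated cells and 133 and 157 with Dex. With CCL1 it was 50.9 and 89.5, and with Dex+CCL1 52.3 and 76.7. The highest CCL1 array thus lay below the lowest control array, and number 1 was the lower in all 6 groups, as it was for both kept Tuba4a probe sets and for Tubg1. The CCL1 differences were -0.86 and -0.45 without Dex and -1.13 and -0.90 with Dex, with a mean of -0.84 ± 0.28 (SD, n = 4), a ratio of 0.560. Tubb2a stood at place 7 from the bottom of the 13575 probe sets, between G6pc3 (-0.84), a glucose-6-phosphatase subunit, and Wdtc1 (-0.83). This probe set (suffix s) can match transcripts of more than 1 gene, so related beta-tubulins cannot be told apart from Tubb2a here. A second Tubb2a probe set had signals of 0.62 to 11.4 and, with a median of 6.63, lay close to the filter level of 6.32 without passing it. No difference is given at that level, so the CCL1 difference of Tubb2a rests on the first probe set alone.

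Tubb5, the beta-tubulin of most dividing cells, had 2 kept probe sets that did not follow each other (r = 0.054 over 12 arrays). The first ranged from 2423 to 3617, with CCL1 differences of -0.19, 0.34, -0.13 and 0.14 and a mean of 0.04 ± 0.25 (SD, n = 4). The second ranged from 504 to 761, with differences of -0.22, -0.10, -0.08 and -0.41 and a mean of -0.20 ± 0.15. The 2 probe sets of this gene therefore gave no common CCL1 difference. Tubb3, the neuronal beta-tubulin, had signals of 0.45 to 7.80, and Tubb6, known from muscle and many other tissues, of 0.26 to 1.76. Neither was kept, and no difference is given for them.

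Tubg1, the gamma-tubulin of the microtubule-nucleating ring, ranged from 165 in Dex+CCL1 1 to 261 in unstimulated 2. CCL1 differences were -0.06, -0.21, -0.27 and -0.19, with a mean of -0.18 ± 0.09 (SD, n = 4). They shared a direction, but the CCL1 arrays (165 to 223) overlapped the control arrays (202 to 261).

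Of the 8 kept probe sets, 3 were above their control in all 4 CCL1 differences (Tuba8 and both of Tuba4a) and 3 were below (Tubb2a, the second of Tubb5, and Tubg1). Over all 13575 probe sets, 7.70% (1045) were higher in all 4 and 10.3% (1396) lower in all 4. The isotypes were selected on this contrast, so nothing is read from the difference between these shares.

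**Figure D2:**
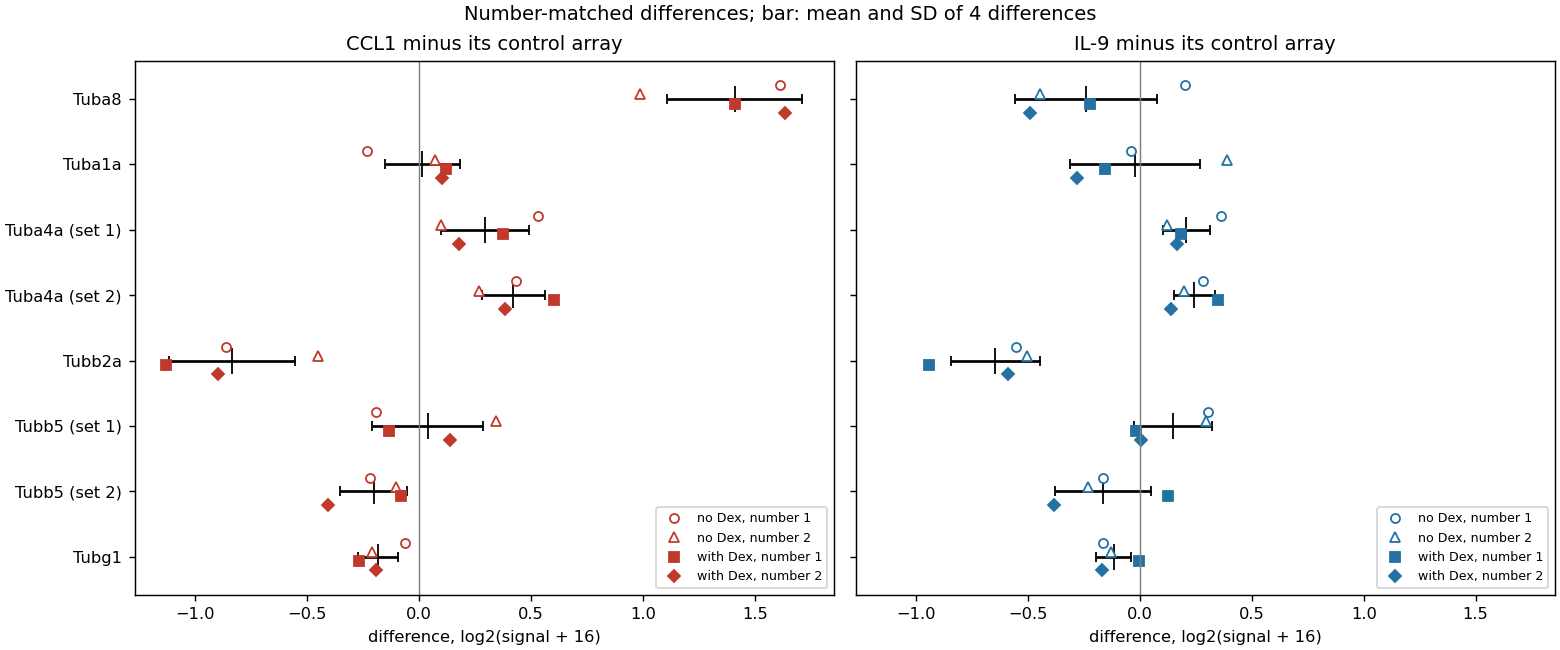
Differences in log2(signal + 16) between each stimulated array and the control array of the same number, for CCL1 (left) and IL-9 (right), in the 8 kept tubulin probe sets. Open symbols are without Dex, filled ones with Dex, and bars are the mean and SD of 4 differences: Tuba8 has 1.41 for CCL1 and -0.24 for IL-9, Tubb2a -0.84 and -0.65.

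Probe sets were then split by median signal, 500 or more (bright: Tuba1a, the first of Tuba4a and both of Tubb5) against less (dim: Tuba8, the second of Tuba4a, Tubb2a and Tubg1). Signals of different probe sets do not rank transcripts, so the split describes probe sets, not how rare an isotype is. Nearest the limit were the second Tubb5 probe set (median 604) and the second of Tuba4a (409). Without Dex, the median size of the CCL1 difference, whatever its sign, was 0.23 for number 1 and 0.10 for number 2 among the bright ones. It was 0.65 and 0.36 among the dim ones. With Dex it was 0.13 and 0.16 for the bright and 0.87 and 0.64 for the dim. The dim class holds Tuba8 and Tubb2a, the genes the set was selected on, which differed in opposite directions, so nothing is read from these sizes. With signs kept, medians of the dim class were 0.19, 0.03, 0.17 and 0.10, and those of the bright class -0.20, 0.08, 0.02 and 0.12. The 2 classes were not tested against each other.

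The IL-9 arrays did not choose the isotypes, but the control arrays are shared with CCL1 and were part of that choice. Control values that were high or low by accident would shift the IL-9 and CCL1 differences the same way. The IL-9 differences of Tubb2a and Tuba8 are thus not independent of the selection, and their intervals and p-values do not allow for it. Tubb2a had signals of 67.1 and 85.8 with IL-9 and of 61.8 and 98.9 with Dex+IL-9. All 4 lay below the 4 control arrays (106 to 157) and overlapped the CCL1 arrays (50.9 to 89.5). The IL-9 differences by number were -0.55 and -0.50 without Dex and -0.94 and -0.59 with Dex, beside the CCL1 ones of -0.86, -0.45, -1.13 and -0.90. Averaged over Dex conditions, the IL-9 difference of Tubb2a was -0.65 (SE 0.17, 95% interval -1.01 to -0.28). It did not pass adjustment over all probe sets (limma, adjusted p = 0.284). Separately it was -0.53 (SE 0.24, adjusted p = 0.996) without Dex and -0.76 (SE 0.24, adjusted p = 0.838) with Dex by limma. The difference between these effects, -0.24 (SE 0.33), had an adjusted p of 1 by limma.

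Tuba8, in contrast with CCL1, had signals with IL-9 (85.7 to 151) that overlapped those of the controls (115 to 211). Its averaged IL-9 difference was -0.24 (SE 0.18, 95% interval -0.63 to 0.15, limma adjusted p = 0.759). It was -0.44 without unstimulated 1 and -0.04 without unstimulated 2. The 2 Tuba4a probe sets had averaged IL-9 differences of 0.21 (SE 0.13) and 0.24 (SE 0.14), with limma adjusted p of 0.710 and 0.656. The first of these was 0.08 without unstimulated 1 and 0.34 without unstimulated 2. With IL-9 the first had signals of 1141 and 1378 alone and of 1011 and 1179 with Dex. Tuba1a (-0.02), both probe sets of Tubb5 (0.15 and -0.16) and Tubg1 (-0.12) had averaged differences with limma adjusted p of 0.779 to 0.988.

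None of the 8 tubulin probe sets passed an adjusted p of 0.05 by limma in any IL-9 comparison, and 1 of them (Tubb2a) had an unadjusted p under 0.05 in each. Such a p was found for 664, 774 and 1164 of all 13575 probe sets (without Dex, within Dex and averaged). Over all probe sets, 0.0221% were called for IL-9 against unstimulated cells (3 of 13575), 0.0221% within Dex (3) and 0.0958% for the average (13). For the IL-9 effect with Dex minus that without, 0% were called by limma, and 215 had an unadjusted p under 0.05, none of them a tubulin of the set. With so few calls in the whole table, a count of 0 among 8 does not tell the tubulins from other genes.

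Dex against unstimulated cells gave 0% called by limma (400 at an unadjusted p under 0.05, no tubulin of the set among them). Differences ran from -0.24 for the second Tuba4a probe set to 0.28 for Tubb2a (SE 0.24, adjusted p = 0.995 by limma). Unstimulated 1 held glucocorticoid targets above the range of the Dex arrays, as given above, so this comparison was also made within number 2 alone. There, over all treatments, Tuba8 was lower with Dex by a difference of -0.61 (SE 0.17, 95% interval -0.98 to -0.24), with an adjusted p of 0.213 by limma. With 1 array left out this difference ran from -0.75 (without IL-9 2) to -0.45 (without Dex+IL-9 2), and was -0.47 without unstimulated 2. Without Dex the number 2 arrays of Tuba8 were 211, 151 and 434 (unstimulated, IL-9, CCL1), and with Dex they were 127, 85.7 and 427. The Dex difference was thus visible in unstimulated and IL-9 arrays and small in the CCL1 pair, whose array without Dex was not in the fit. The arrays of the Dex and number comparisons include those that chose Tuba8 and Tubb2a. Intervals and p-values of these 2 genes there do not allow for that choice. Tuba1a (-0.47, SE 0.16, adjusted p = 0.340) and the 2 Tuba4a probe sets (-0.30, SE 0.12, adjusted p = 0.429, and -0.35, SE 0.11, adjusted p = 0.309) also had an unadjusted p under 0.05 by limma. These were 4 of the 8, and 1423 of all 13575 probe sets had such a p. None of the 8 was called, where 0.597% of all probe sets were (81, of which 69 higher).

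Numbers 1 and 2 without Dex were compared over all treatments, and 0.796% of probe sets were called by limma (108, of which 85 higher in number 1). Glucocorticoid targets made up 5 of these calls out of 7 kept. None of the 8 tubulin probe sets was called, and 5 had an unadjusted p under 0.05, as did 1245 of all 13575. Tuba1a came closest, with 835, 810 and 707 in number 1 (unstimulated, IL-9, CCL1) against 1140, 1498 and 1198 in number 2, without overlap. Its difference, from the fit without array CCL1 2, was -0.75 (SE 0.16, adjusted p = 0.0664 by limma). Adding that array made the limma adjusted p 0.0234, but number 2 then includes an array of the other platform. Tuba8 (-0.52, SE 0.17, adjusted p = 0.297) and the second Tuba4a probe set (-0.43, SE 0.11, adjusted p = 0.149) were also lower in number 1. The second Tubb5 probe set was higher (0.39, SE 0.13, adjusted p = 0.298 by limma). The Tuba8 value is not independent of the selection of that gene. The part of the glucocorticoid target level of the number 1 arrays in these differences was not tested.

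The Dex effect in number 1 minus that in number 2 was 0.80 for Tuba8 (SE 0.22, adjusted p = 0.286 by limma) and 0.62 for Tuba1a (SE 0.22, adjusted p = 0.414). The Tuba8 value again does not allow for the selection. No tubulin of the set was called, and 0.206% of all probe sets (28) were. An unadjusted p under 0.05 was found for 3 of the 8 and for 1365 of all 13575.

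The other genes of tubulin biology were counted from lists, 1 probe set per gene, against 7507 genes of which 7.86% were higher and 11.5% lower in all 4 CCL1 differences (median of means -0.02). No kept gene of these lists passed limma's adjusted p of 0.05 in any comparison of IL-9, Dex or numbers. Their CCL1 values follow as descriptions.

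Other tubulins were poorly covered by probe sets of a single symbol: 1 of 12 alpha-tubulins listed, 3 of 9 beta-tubulins and 2 of 3 others. Those without such a probe set were not assessed. Of the covered ones, 3 genes were kept. Tubb4b, a beta-tubulin of dividing and ciliated cells, ranged from 770 to 1358 with a mean CCL1 difference of 0.09 ± 0.13 (SD, n = 4). Tubb4a (0.02 ± 0.35) and the delta-tubulin Tubd1 (-0.02 ± 0.56) were dim. None of these 3 had a mean CCL1 difference near those of Tuba8 and Tubb2a, which were selected for theirs, so nothing is read from this.

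Tubulin is folded by the CCT chaperonin with prefoldin, and its subunits are joined by the cofactors Tbca to Tbce. Among 13 folding genes, 1 was higher in all 4 CCL1 differences (Tbcc, 0.16 ± 0.11) and 2 lower (Tbcd, -0.15 ± 0.08, and Ttc5, -0.16 ± 0.08), with a median of -0.08. Ttc5 is the factor that starts decay of tubulin mRNA when free tubulin is in excess. Pfdn6, a prefoldin subunit, had -0.16 ± 0.31. Among 10 chaperonin genes, 2 were higher in all 4 (Cct7, 0.21 ± 0.18, and Cct4, 0.13 ± 0.10) and none lower, with a median of 0.05.

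Gamma-tubulin works in rings with the Tubgcp proteins, which augmin (the Haus proteins) brings to existing microtubules. Among 16 such genes, 1 was higher in all 4 (Nedd1, the factor that anchors the ring, 0.28 ± 0.19) and 3 lower, with a median of -0.08. The lower ones were Tubgcp3 (-0.40 ± 0.37), Haus4 (-0.37 ± 0.14) and Haus8 (-0.25 ± 0.15). Akap9, a centrosome and Golgi scaffold, had a mean of -0.34 ± 1.06. Its difference in the Dex pair of number 2 was 1.08 and in that of number 1 -1.46. Haus3 likewise had 0.94 in the Dex pair of number 2, the pair that holds the array that stood apart, and -0.97 in the number 2 pair without Dex.

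Among 22 microtubule-binding genes, 1 was higher in all 4 (Map7d1, 0.17 ± 0.10) and 4 were lower, with a median of 0.003. The lower ones were the end-binding protein gene Mapre2 (-0.42 ± 0.38), Stmn1 (stathmin, which sequesters tubulin dimers, -0.35 ± 0.18), Clasp1 (a stabiliser of growing ends, -0.26 ± 0.07) and the depolymerising kinesin gene Kif2c (-0.27). Kif2a, of the same kinesin family, had 0.42 ± 0.46 with differences of 0.34, -0.21, 0.77 and 0.77. Stmn1 had signals of 989 to 1727.

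Among 9 genes of enzymes that modify tubulin, 1 was higher in all 4 (Vash2, of a detyrosinating family, 0.18 ± 0.09) and 3 lower, with a median of -0.14. The lower ones were Agbl5, a deglutamylase (-0.34 ± 0.14), Ttll1, a polyglutamylase (-0.32 ± 0.19), and Tpgs1, a subunit of that enzyme complex (-0.14 ± 0.12). Agtpbp1, another deglutamylase, had -0.37 ± 0.35 with signals of 9.63 to 32.0. No list gene came near the mean differences of Tuba8 and Tubb2a.

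**Figure D3:**
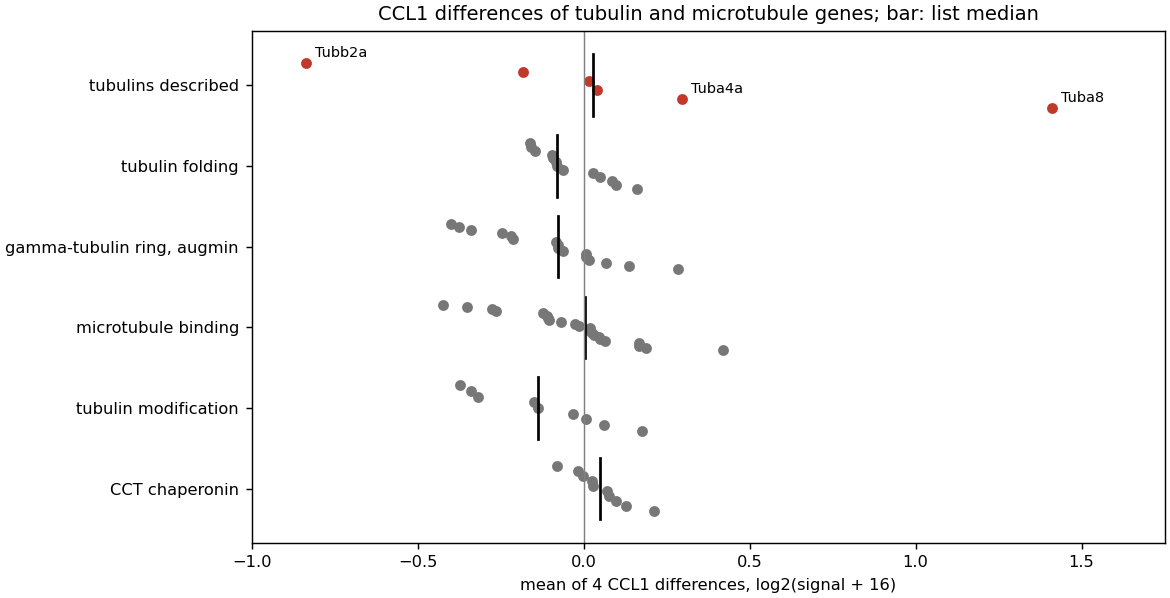
Mean of the 4 CCL1 differences in log2(signal + 16) for each kept gene, 1 point per gene, in the tubulins described and 5 lists of tubulin-related genes, with the list median as a vertical bar. Tuba8 (1.41) and Tubb2a (-0.84) lie outside the range of the lists, whose medians are -0.14 to 0.05. Both were selected on this contrast, so nothing is read from their distance to the lists.

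Likeness to Tuba8 and Tubb2a was measured as Pearson's r of log2(signal + 16) over the 12 arrays, among 7506 other genes. The arrays share labelling, scaling and treatments, so r is a description without a p. Most like Tuba8 were Dusp6 (r = 0.930, Spearman's rho 0.685), Usp18, a protease that removes ISG15 (0.930, rho 0.909), Tmsb4x, an actin monomer-binding peptide (0.924, rho 0.762), Itpkb, an inositol trisphosphate kinase (0.921, rho 0.846), and Coro1a, an actin-binding coronin (0.902, rho 0.727). Their mean CCL1 differences were 1.57, 1.13, 0.59, 0.31 and 0.69, so all 5 shared the direction of Tuba8 by the choice of genes. Usp18 was dim, at 3.12 to 50.1.

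Most like Tubb2a were Igf2r, the mannose 6-phosphate receptor (r = 0.932, rho 0.916), Pqlc3 (0.912, rho 0.916), Plpp3, a lipid phosphatase (0.908, rho 0.881), Ccm2l (0.903, rho 0.930) and Lmo4, a LIM-domain cofactor (0.900, rho 0.888). Their mean differences were -0.44, -0.28, -0.53, -0.38 and -0.50 for CCL1 and -0.29, -0.23, -0.38, -0.37 and -0.56 for IL-9, from the same control arrays. Lmo4 ranged from 85.6 to 183 and Igf2r from 79.8 to 156, while Plpp3 was at 10.4 to 29.2. Among the tubulins, Tubg1 was the closest to Tubb2a (r = 0.707), and Tuba8 and Tubb2a had r = -0.473.

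**Figure D4:**
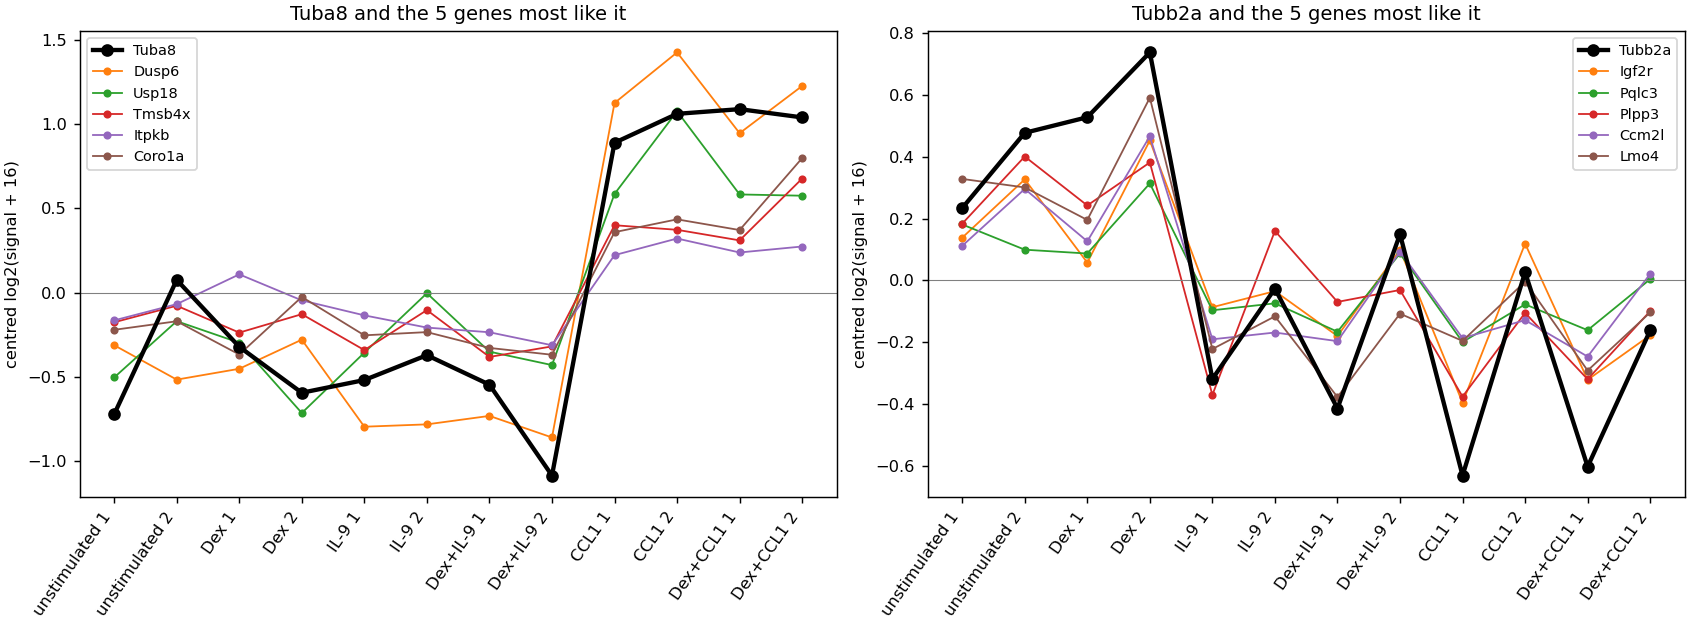
Profiles over the 12 arrays of Tuba8 (left) and Tubb2a (right), each with the 5 genes of highest Pearson's r, as log2(signal + 16) minus the gene's mean; lines join the arrays of a gene only to guide the eye. The Tuba8 group separates the 4 CCL1 arrays from the other 8, and Tubb2a, Plpp3, Ccm2l and Lmo4 are each highest in the 4 arrays without IL-9 or CCL1; Igf2r and Pqlc3 overlap there.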

How the data were processed

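The authors deposited MAS5 signal intensity values on a linear scale, per the submitters' processing notes, in 2 tables of 11 and 1 arrays joined on probe set; no MAS5 version or further step is given in the sources used here. Every array has the same trimmed mean, so a shift of all genes together could not be seen. After removal of 64 control probe sets 22626 remained: 20380 with 1 symbol, 691 with several and 1555 with none in the platform annotation. Signals were taken as log2(signal + 16), which understates folds of low signals, and probe sets above the 40th percentile of the mean were kept. All 8 symbols matched the RefSeq gene table (GRCm38.p6), whose promoters supplied the sequences.

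Tests used limma 3.58.1 (R 4.3.3) on the 11 arrays of the larger table: 1 mean per group, or treatment plus Dex split by number, with an intensity trend, 5 residual degrees of freedom and Benjamini-Hochberg adjustment over 13575 probe sets, threshold 0.05. There were 8 contrasts, including the differences of the IL-9 effect by Dex and of the Dex effect by number, added later. The 2 arrays of a group differed by a median of 0.168 to 0.258 log2, with 0 identical values. The IL-9 contrasts (without Dex, within Dex and averaged) were tested on simulated data with added IL-9 effects and independent noise. Dex against unstimulated cells was checked there for false calls only. The contrasts of numbers, of Dex within number 2 and of differences between effects were not tested in this way. Precision is limited by the few arrays.

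The isotypes and gene lists were chosen with earlier results of these data known. Named were all isotypes, every list gene that passed the test (none did) and in each list up to 4 more by size of the CCL1 mean, genes in 1 direction in all 4 CCL1 differences, and the 5 genes most like Tuba8 and Tubb2a. Haus3 and the arrays of Akap9 and Kif2a were singled out after their values were seen.

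Other settings tried were a pseudocount of 1 or 64, the filter dropped or set at the 60th percentile, arrays quantile normalized or centred on the median, no trend, the replicate number as a block, array CCL1 2 added, 1 probe set per gene, and each array left out. For CCL1, differences of group means and 3 of the 4 differences were also taken.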

Additional observations from a re-analysis of the deposited data

How the results depend on the processing

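For IL-9 (each comparison), Dex against unstimulated cells and Dex within number 2, the count of tubulin probe sets called stayed at 0 under every alternative run. Number 1 against number 2 without Dex went from 0 to 1 under quantile normalization, with array CCL1 2 added and with 1 probe set per gene, and ranged from 0 to 1 over the arrays left out (1 without Dex 2 or without Dex+IL-9 2). That probe set was Tuba1a, with limma adjusted p of 0.0221 to 0.137 over the processing settings and 0.0273 to 0.691 over the arrays left out. The averaged IL-9 difference of Tubb2a was -0.75 to -0.46 over the processing settings (limma adjusted p 0.0724 to 0.482). Over the arrays left out, each of which leaves a group with 1 array, it was -0.79 to -0.51. With the replicate block the counts of tubulins called were 0, and Tubb2a had a limma adjusted p of 0.0724 for the averaged IL-9 difference. Number differences of the groups correlated at -0.005 to 0.35 (median 0.185) over all kept probe sets. The tests with 1 mean per group did not pair the numbers, while the number-matched CCL1 and IL-9 differences did. Number 1 was the lower in all 6 groups for Tubb2a, Tuba1a, both kept Tuba4a probe sets and Tubg1, which those tests did not take into account. The count of tubulin probe sets in 1 direction in all 4 CCL1 differences was 6 in the main setting. It was 5 with median centring and 6 in the other processing settings that kept all 4 differences. For the 2 differences of group means it was 7, and for the 3 differences with a pair left out 6 to 7. Mean differences were 1.19 to 1.50 for Tuba8 and -0.98 to -0.58 for Tubb2a over the processing settings. With a pair left out they were 1.34 to 1.55 and -0.96 to -0.74. Over the arrays left out, Tubb2a in IL-9 within Dex was -1.05 to -0.48 and Tuba1a between numbers -1.03 to -0.48. Calls over all probe sets depended on single arrays. Without Dex 1 the Dex group was array Dex 2 alone, the array with the lowest median correlation with the others. Far more probe sets were then called for IL-9 within Dex, its average and Dex against unstimulated cells. No rise of that size was seen without Dex 2. A group of 1 array has no spread of its own, so nothing is read from these calls, and the cause was not tested. Over the arrays left out, number 1 against 2 ranged from 46 to 216 and Dex within number 2 from 29 to 117; without a filter these were 65 and 44. Probe sets at signals near or below 6.32 (4 of the 12) were not compared.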
